A study of Homo sapiens with 12 samples.

Results

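The 246 genes described here were the protein-coding genes of human chromosome 19 whose symbol is ZNF followed by a number, out of 20162 protein-coding genes in GENCODE on GRCh37 (hg19). The rule that picks them uses symbol and position only. Binding at these genes was read from peak lists of chromatin immunoprecipitation sequencing (ChIP-seq) in HAP1, a near-haploid human leukaemia cell line. Chromatin was precipitated with antibodies to SMC1, to CTCF or with control IgG, and each genotype and antibody had 1 library. The 4 genotypes were wild-type cells, ΔWAPL cells, in which WAPL was disrupted by CRISPR with insertion of a blasticidin cassette, ΔSCC4 cells, in which SCC4 was disrupted with a puromycin cassette, and ΔWAPL/ΔSCC4 cells. The deleted lines were clones, and the double mutant was made by disrupting SCC4 in the ΔWAPL cells, so that it shares its parent with them. With 1 library per group there was no replicate check and no test between genotypes, and every interval given below covers counting error only.

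Most zinc-finger genes of chromosome 19 lie in tandem clusters that grew by gene duplication. A typical member encodes a KRAB domain in short upstream exons and a long array of C2H2 fingers in its last exon, and many of the proteins silence transposable elements by recruiting TRIM28, the SETDB1 methyltransferase and HP1. Cohesin is a ring that contains SMC1 and holds chromatin loops, SCC4 (the product of MAU2) is part of its loader, WAPL releases it from DNA, and CTCF, itself a C2H2 zinc-finger protein, halts it at loop anchors.

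The structure of the members matched that picture. Their median gene length was 25.8 kb with 4 exons, against 27.2 kb with 8 exons over all protein-coding genes. Their last exon was long, with a median of 3.3 kb against 1.38 kb over all genes and 0.728 kb for the 1234 other genes of chromosome 19. The base pattern ACNGGNGA followed directly by NAANCCNT, where N is any base and which encodes the conserved linker between neighbouring fingers, was found on the coding strand of the last exon in 210 members (85.4%), with a median of 6 copies and at most 25. It was found in 60.8% of the 263 ZNF genes of other chromosomes and in 2.25% of all genes.

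The sequences on which the strongest member peaks sat are shown first. In each line the 19 capitals are the best match to a CTCF motif learned from CTCF peaks of other chromosomes (consensus NNGCCACCAGGGGGCGCNN), written in the direction of the motif with 5 bases on each side. They are intronic sites with strong SMC1 peaks, promoter sites where SMC1 was not called in ΔSCC4 (ZNF329) or in wild-type (ZNF554), the last-exon sites, and a CTCF site that carried no SMC1 (ZNF682). The positions are those of GRCh37, and plus and minus give the strand of the motif.
ZNF653, intron, chr19:11607329-11607357, plus: ccctaCAGCCGCAAGGGGGCGCCTgtgaa
ZNF93, intron, chr19:20041400-20041428 and again at chr19:20070185-20070213, minus: agacaAGGCCACCAGAGGGCTCCTtggtc
ZNF536, intron, chr19:31160513-31160541, plus: cgagaTGGCCGCAAGAGGGCGCCCgatcc
ZNF329, promoter, chr19:58666593-58666621, minus: ccctgCTGCCACTGGGGGGCGCCAtcgtc
ZNF554, promoter, chr19:2819755-2819783, plus: gccgcCCGCCCGGAGGCGGCGCTGtgacc
ZNF575, last exon, chr19:44039798-44039826, plus: cgcagCCACCACCAGGTGGAGCACaaggg
ZNF473, last exon, chr19:50550309-50550337, plus: gcctgTAGCCATTGGGTGGCAGCAgagtc
ZNF682, intron, chr19:20108661-20108689, plus: agtgaTGGCCTCTAGGTGGTGAGAgcctt

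Other member promoters carried SMC1 with no CTCF peak. The 100 bases before the canonical start of 3 of them are shown, 5′ to 3′ on the strand of the gene, with TTTCCCAG in capitals where it occurs. ZNF837 had the peak of highest −log10 q among them in ΔWAPL, ZNF283 had a peak only in ΔWAPL, and ZNF30 is shown as a promoter that lacks the pattern in this stretch.
ZNF837, chr19:58892398-58892497, minus: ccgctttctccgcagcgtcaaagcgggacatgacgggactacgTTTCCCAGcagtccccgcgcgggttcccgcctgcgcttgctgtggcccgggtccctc
ZNF283, chr19:44331373-44331472, plus: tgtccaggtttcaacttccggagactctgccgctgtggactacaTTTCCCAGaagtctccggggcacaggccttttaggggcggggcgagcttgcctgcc
ZNF30, chr19:35417707-35417806, plus: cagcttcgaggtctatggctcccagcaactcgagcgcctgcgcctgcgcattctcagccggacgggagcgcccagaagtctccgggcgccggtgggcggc

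The peak lists differed in length. The SMC1 lists held 12779 to 33952 peaks, of which 428 to 1146 were on chromosome 19, and the CTCF lists held 37625 to 47608 peaks, of which 1394 to 1608 were there. The average coverage recovered from the lists was 6.79 to 8.41 reads per kb for SMC1 and 6.53 to 8.41 for CTCF, so no library was far shallower than the others. The IgG lists held 390 to 570 peaks, and 0 of them lay at a member. A peak was counted at a gene when it overlapped the gene body or when its summit, the point of highest coverage, lay within 1 kb of a start of the gene. Absence of a peak means that none was called at this depth, not that the protein was absent.

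SMC1 peaks were sparse over these genes and most numerous in ΔWAPL. In wild-type cells 20 members (8.13%, 95% Wilson interval 5.32 to 12.2) had an SMC1 peak, against 36.1% of all protein-coding genes. In ΔWAPL cells 57 members (23.2%, 18.3 to 28.8) had one, against 58.6% of all genes. In ΔSCC4 cells 13 members (5.28%, 3.11 to 8.83) had one, against 26.3%. In ΔWAPL/ΔSCC4 cells 28 members (11.4%, 7.99 to 16) had one, against 43.7%. The member share lay below that of all genes in each of the 4 libraries. The intervals hold no variation between libraries or clones, so they do not compare the genotypes.

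The neighbours on the chromosome and the ZNF genes elsewhere were both better occupied. In the order wild-type, ΔWAPL, ΔSCC4 and double mutant, 28.3%, 43.3%, 18% and 30.0% of the other chromosome 19 genes had an SMC1 peak. Of the ZNF genes of other chromosomes, 31.2%, 58.6%, 22.8% and 39.5% had one, which was close to the share of all genes. Values given below without a genotype run in this order. The members lay below both groups in each library, and their intervals did not overlap those groups' shares. The difference was not tested, because genes of 1 library are not replicates.

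Taken over the 4 lists, 68 members (27.6%) had an SMC1 peak in at least 1 genotype, against 61.1% of all genes. Of these 68, 40 had it in exactly 1 genotype and 8 had it in all 4, namely ZNF653, ZNF536, ZNF383, ZNF114, ZNF616, ZNF83, ZNF611 and ZNF837. Of the 12325 protein-coding genes with an SMC1 peak in some genotype, 4754 had it in all 4. A peak of neither SMC1 nor CTCF was found at 145 members (58.9%) in any genotype, against 30.0% of all genes, 41.6% of the other chromosome 19 genes and 30.8% of ZNF genes elsewhere.

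**Figure D1:**
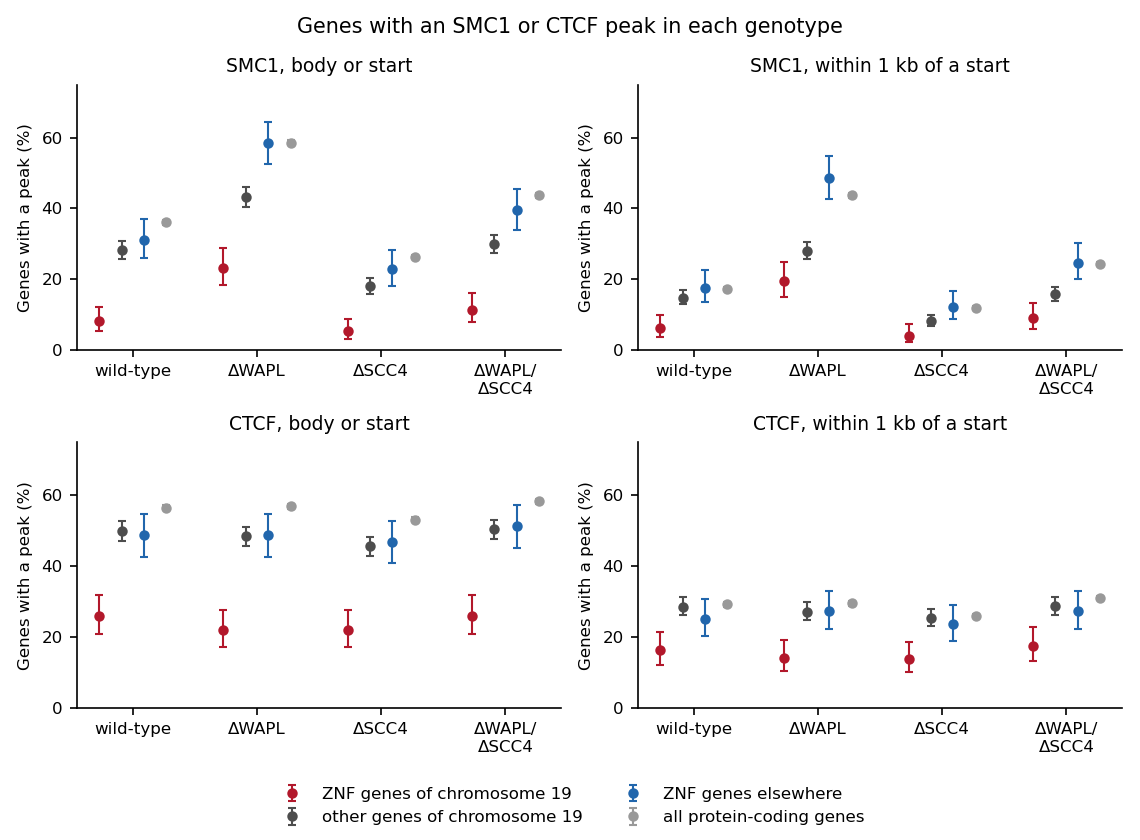
Share of genes with an SMC1 or a CTCF peak in each genotype (percent, vertical axis) for the 246 members and the comparison groups, with 95% Wilson intervals as bars, for any peak (left) and for promoter peaks (right). The members lie below the other groups in each library, from 5.28% to 23.2% for SMC1 and from 22.0% to 26.0% for CTCF in the left panels.

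Between genotypes the members changed mainly by gain in ΔWAPL. From wild-type to ΔWAPL, 42 members gained an SMC1 peak, 5 lost it and 15 had it in both, where 23.5% of all genes gained and 0.918% lost one. From wild-type to ΔSCC4, 5 members gained a peak and 12 lost it, where 2.17% of all genes gained and 11.9% lost one. From wild-type to ΔWAPL/ΔSCC4, 15 members gained a peak and 7 lost it, where 10.7% and 3.02% of all genes did. From ΔWAPL to ΔWAPL/ΔSCC4, 7 members gained a peak and 36 lost it, where 1.79% and 16.7% of all genes did. From ΔSCC4 to ΔWAPL/ΔSCC4, 17 gained a peak and 2 lost it, where 18.6% and 1.14% of all genes did. The comparisons share libraries, so these counts are not independent of each other. In the deposited lists, deletion of WAPL was accompanied by more occupied members both in cells with SCC4 and in cells without it.

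This order depended on the length of the lists. When each list was cut to its 12779 strongest SMC1 peaks, 7, 11, 13 and 8 members had a peak. ΔSCC4 was then the highest, so that wild-type to ΔSCC4 turned to a rise and ΔSCC4 to the double mutant to a fall. ΔWAPL was highest in the other 12 of 13 settings tried.

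Viewed by position rather than by gene, the SMC1 peaks of the 4 lists formed 85 separate regions at members. Of these, 53 (62.4%) had a peak in ΔWAPL and none in wild-type. The share was 43.5% of the 38018 SMC1 regions of the genome, those outside genes included. Of the 85 regions, 38 (44.7%) were present in ΔWAPL alone, against 24.3% of those of the genome and 30.2% of the regions at all genes. Only 9 (10.6%) were present in all 4 genotypes, against 24.3% of the regions at all genes. At the 18 member regions called in both wild-type and ΔWAPL, the summit coverage relative to the genome average was a median of 1.83 times as high in ΔWAPL, against 1.61 times over all shared regions. It was higher in ΔWAPL at 15 of the 18. From wild-type to ΔSCC4 the median ratio was 1.13 over 9 shared member regions, where it was 0.817 over all shared regions, and from wild-type to the double mutant it was 1.27 over 15 and 1.28 over all. From ΔWAPL to ΔWAPL/ΔSCC4 the median ratio was 0.713 over 28 shared member regions and 0.795 over all shared regions. From ΔSCC4 to the double mutant it was 1.08 over 12 and 1.57 over all. The comparisons with ΔSCC4 rest on few regions.

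The peaks were separated by where their summit fell. The zones were promoters (within 1 kb of any start), then the last exon of the canonical transcript, its other exons, and introns. Promoters held most of the occupied members. An SMC1 promoter peak was found at 15 members in wild-type cells (6.1%, 3.73 to 9.82) and at 48 in ΔWAPL cells (19.5%, 15 to 24.9). ΔSCC4 cells had 10 such members (4.07%, 2.22 to 7.32) and the double mutant 22 (8.94%, 5.98 to 13.2). The shares of all genes were 17.3%, 43.7%, 11.8% and 24.3%. From wild-type to ΔWAPL, 37 member promoters gained an SMC1 peak and 4 lost it, where 27.1% and 0.645% of all promoters did.

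Introns held fewer. An SMC1 peak with its summit in an intron was found at 5, 11, 3 and 8 members, where 21.8%, 28.8%, 15.5% and 25.6% of all genes had one. The highest member share was 4.47%, in ΔWAPL. The last exon, which encodes the fingers in most members, was taken whole, with its untranslated part. It had an SMC1 peak in 1 member in ΔWAPL and in 0 members in each other genotype, which allows a share of up to 1.54%. Of all genes, 2.12%, 3.5%, 1.46% and 2.79% had one there. No member had an SMC1 summit in another exon in any genotype, where 0.813%, 1.72%, 0.56% and 1.21% of all genes had one.

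Counted per length, which allows for long introns, the pattern across zones differed between SMC1 at promoters and SMC1 inside genes. Over the 1.07 Mb of member promoters there were 14 SMC1 peaks per Mb in wild-type cells (exact Poisson interval 7.84 to 23.1) and 44.8 in ΔWAPL (33.0 to 59.4). The other chromosome 19 promoters had 27.3 and 53.2 per Mb, and the ΔWAPL intervals of both groups overlapped (47.8 to 59.0 for the neighbours). All protein-coding promoters had 27.7 and 77.1 per Mb and those of ZNF genes elsewhere 36.1 and 109, so that the ΔWAPL value of the members lay below both. Over 5.75 Mb of member introns there were 1.39 SMC1 peaks per Mb in wild-type cells (0.601 to 2.74) and 3.83 in ΔWAPL (2.4 to 5.79), or 2.28 in ΔWAPL without the long gene ZNF536, against 10.6 and 15.6 in introns of the other chromosome 19 genes. Introns of ZNF genes elsewhere had 4.55 and 7.34 per Mb and those of all genes 5.3 and 8.49. Over 0.847 Mb of member last exons there was 1 SMC1 peak in ΔWAPL, or 1.18 per Mb, against 28.0 per Mb in the last exons of the other chromosome 19 genes and 7.6 in those of ZNF genes elsewhere. All last exons had 10.7 per Mb in wild-type cells and 17.6 in ΔWAPL. In wild-type cells the member last exons had 0, with an upper limit of 4.36 per Mb, against 18.4 for the neighbours and 4.34 for ZNF genes elsewhere.

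**Figure D2:**
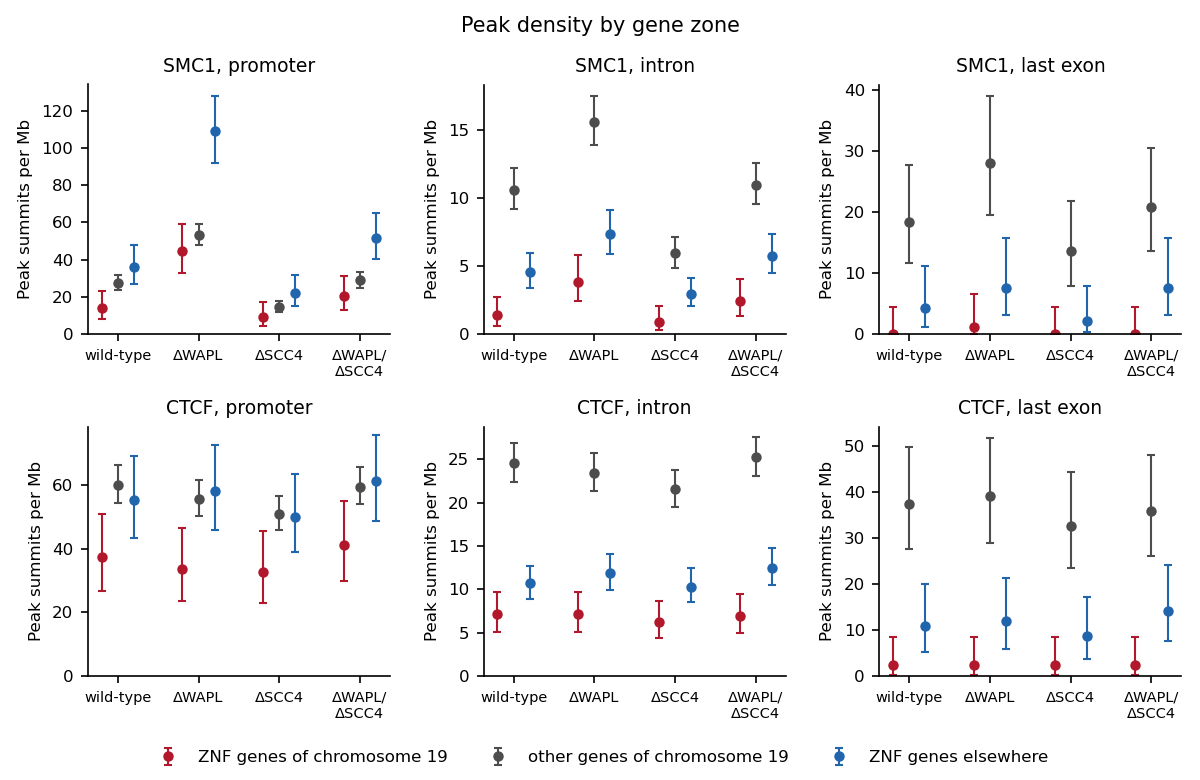
Peak summits per Mb of promoter, intron and last-exon sequence in each genotype (vertical axis), for members and comparison groups, with 95% exact Poisson intervals as bars. Member promoters rise to 44.8 SMC1 peaks per Mb in ΔWAPL, whereas member last exons stay at 0 or 1.18 for SMC1 and at 2.36 for CTCF.

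Repeated sequence limits what short reads can show in duplicated genes, so the share of 50-base words that recur elsewhere on chromosome 19 was measured. It was 5.07% in member last exons, 3.99% in member promoters and 5.49% in member introns, against 2.78%, 3.75% and 5.5% in the other chromosome 19 genes. The part of this recurrence in the low peak counts was not tested.

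CTCF occupied more of the members than SMC1 and varied less between genotypes. A CTCF peak was found at 64 members (26.0%, 20.9 to 31.8) in wild-type cells and again in the double mutant, and at 54 (22.0%, 17.2 to 27.5) in ΔWAPL cells and again in ΔSCC4 cells, where, in the usual order, 56.5%, 56.9%, 53.1% and 58.4% of all genes had one. The 4 intervals overlapped, but they hold no variation between libraries. Of the other chromosome 19 genes 45.6% to 50.4% had a CTCF peak, and of the ZNF genes elsewhere 46.8% to 51.3%. In all, 74 members (30.1%) had a CTCF peak in some genotype and 45 in all 4. Over all genes, 12468 (61.8%) had one in some genotype and 10296 in all 4.

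From wild-type to ΔWAPL 3 members gained a CTCF peak and 13 lost it, where 2.81% of all genes gained and 2.46% lost one. The counts from wild-type to ΔSCC4 were the same, 3 gained and 13 lost, where 1.1% gained and 4.54% lost one. From ΔWAPL to ΔWAPL/ΔSCC4 12 members gained a CTCF peak and 2 lost it, where 3.5% and 1.99% of all genes did. Each of these directions turned in some setting. At a −log10 q of at least 10, for example, 38 members had CTCF in wild-type cells and 43 in ΔWAPL. The 103 CTCF regions at members were present in all 4 genotypes in 61 cases (59.2%), against 64.5% of the regions at all genes. Summit coverage at shared member regions was a median of 0.836 of wild-type in ΔWAPL over 70 regions, and 0.829 over all shared regions.

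By zone, CTCF promoter peaks were found at 40, 35, 34 and 43 members in the order wild-type, ΔWAPL, ΔSCC4 and ΔWAPL/ΔSCC4, where 29.2%, 29.5%, 26.0% and 31.0% of all genes had one. Intronic CTCF peaks were found at 29, 27, 26 and 29 members, where 37.8%, 38.2%, 35.4% and 39.0% of all genes had one. Last-exon CTCF peaks were found at 2 members in each genotype, ZNF473 and ZNF575, where 4.73%, 5.04%, 4.26% and 5.02% of all genes had one. Member introns held 6.26 to 7.13 CTCF peaks per Mb and introns of the other chromosome 19 genes 21.6 to 25.2. The last exons of members, untranslated parts included, held 2.36 CTCF peaks per Mb (0.286 to 8.53), against 32.7 to 39.1 in the last exons of the neighbours and 21.7 to 26.4 in those of all genes. The last exons of ZNF genes elsewhere held 8.68 to 14.1, and their intervals overlapped that of the members in each genotype (5.2 to 20.0 in wild-type cells).

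The member peaks were mostly weaker than those of the lists. Fold enrichment, the ratio of summit coverage to local background that the peak caller gives, had medians of 5.13, 5.10, 5.42 and 5.46 over 23, 71, 15 and 36 member SMC1 peaks. The medians of the whole lists were 6.25, 6.29, 5.90 and 6.29. At promoters the gap was small in the mutants, with member medians of 4.94, 5.07, 5.41 and 5.55 against 5.74, 5.18, 5.54 and 5.6 over all promoters. SMC1 peaks without CTCF had fold medians of 4.73, 4.67, 4.96 and 4.62 at members and 4.47, 4.42, 4.43 and 4.38 at all genes. By that ratio they were no weaker at members. Their relative summit coverage was 8.24, 8.79, 8.97 and 7.78 at members and 8.88, 10.0, 8.37 and 9.08 at all genes. By coverage they were thus weaker at members in all but ΔSCC4. For CTCF the member medians were 8.52, 9.24, 8.25 and 8.42, against 12.2, 11.4, 11.7 and 11. The highest member SMC1 value was 14.3, at ZNF93 in ΔWAPL.

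The share of member SMC1 peaks that coincided with CTCF called in the same cells was 69.6%, 54.9%, 80.0% and 86.1%, against 92.5%, 73.6%, 93.4% and 89.9% of the SMC1 peaks at all genes. The Wilson intervals of the members held the all-gene share in the double mutant (71.3 to 93.9) and fell just short of it in ΔSCC4 (54.8 to 93.0). At promoters the shares were 53.3%, 39.6%, 70% and 77.3%, against 81.7%, 49.6%, 84.1% and 74.5%, so in the double mutant the members were no lower. In the reverse direction, 61 CTCF regions at members were present in all 4 genotypes. SMC1 was called at 16 (26.2%), 36 (59.0%), 12 (19.7%) and 26 (42.6%) of them. The shares over constant CTCF regions at all genes were 48.6%, 71.5%, 32.3% and 63.3%. At 19 of the 61 (31.1%) no SMC1 peak was called in any genotype, and at 8 (13.1%) it was called in all 4. The shares at all genes were 22.1% and 28.3%. In wild-type cells the member CTCF peaks with SMC1 had a median fold enrichment of 13.5 and those without it 7.15.

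SMC1 promoter peaks without CTCF were about as frequent at members as at their neighbours. They were found at 7, 31, 3 and 5 members, where 3.53%, 25.3%, 2.04% and 7.02% of all genes had one. Of the other chromosome 19 genes 1.7%, 10.1%, 0.729% and 1.78% had one, so the member share in ΔWAPL (12.6%, 9.02 to 17.3) lay no lower than that of the neighbours. ZNF genes elsewhere reached 30.0% in ΔWAPL. At CTCF, by contrast, 8, 19, 7 and 17 members had an SMC1 promoter peak, where 14.1%, 23.1%, 9.94% and 18.3% of all genes had one. The member share in ΔWAPL was 7.72%, against 19.4% of the other chromosome 19 genes.

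From wild-type to ΔWAPL 27 members gained an SMC1 promoter peak without CTCF and 3 lost it, where 22.5% and 0.739% of all genes did. From ΔWAPL to ΔWAPL/ΔSCC4 1 gained it and 27 lost it, where 1.56% and 19.8% did. A gene also leaves or enters this class when the CTCF call at its SMC1 peak changes, so these are not all SMC1 changes. The ZNF587B promoter had SMC1 at 5.1 in ΔWAPL without CTCF and at 4.33 in ΔWAPL/ΔSCC4 with it. Whether or not CTCF was called, 6 members gained an SMC1 promoter peak between these genotypes and 32 lost it, where 1.5% and 20.9% did. The 31 members in ΔWAPL corresponded to 29 peaks, since ZNF383 with ZNF585B and ZNF540 with ZNF571 share a divergent promoter and a peak. In all, 8 of the 48 SMC1 promoter peaks in ΔWAPL also lay within 1 kb of a start of a gene that is no member. Of the 31 gene and peak pairs without CTCF, 22 had the summit within 250 bp of the start, 10 lay upstream and 21 downstream of it. CTCF promoter peaks in ΔWAPL lay upstream in 28 of 36 pairs.

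**Figure D3:**
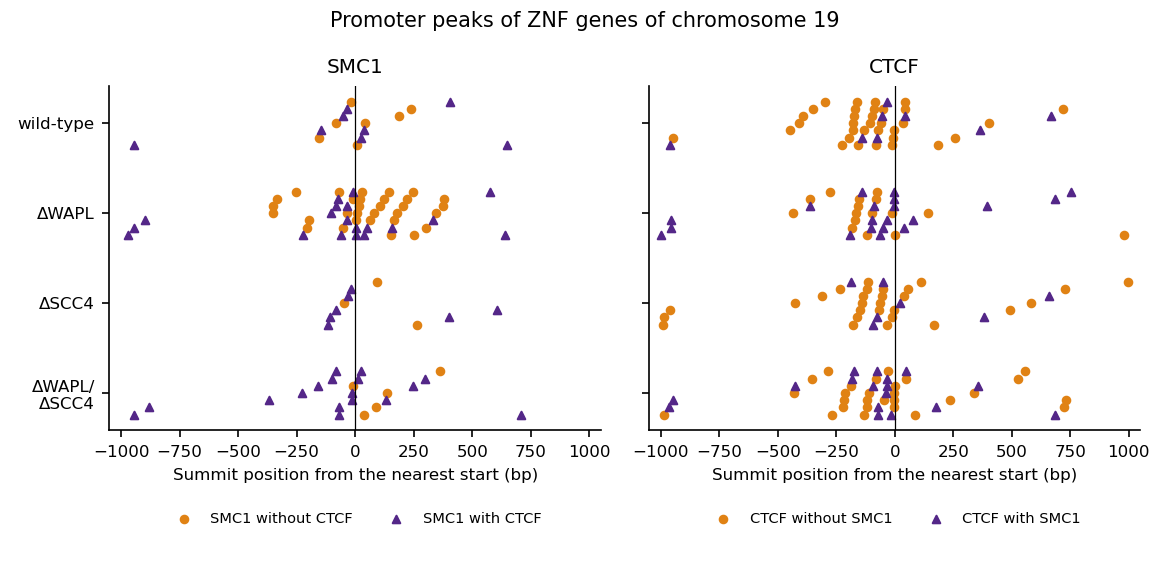
Position of each SMC1 and CTCF promoter summit relative to the nearest member start (bp, horizontal axis, negative upstream), by genotype, with symbols for peaks with and without a peak of the other antibody. In ΔWAPL the SMC1 peaks without CTCF lie downstream of the start in 21 of 31 pairs, and the CTCF peaks upstream in 28 of 36.

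The promoter without CTCF with the highest −log10 q in ΔWAPL was that of ZNF837, which had SMC1 peaks in all 4 genotypes with fold enrichments of 4.94, 6.04, 5.42 and 4.62. These rested on 14, 23, 15 and 12 reads at the summit, so the 4 values are close. The ΔWAPL peak spanned chr19:58891863-58892467, with its summit 246 bp downstream of a start. ZNF181 had a peak only in ΔWAPL, with a fold enrichment of 6.11 on 22 reads. ZNF30 had one in wild-type, at 4.73 on 13 reads, and in ΔWAPL, at 6.01 on 18 reads, and none in the genotypes without SCC4.

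At ZNF283 the SMC1 peak was again found only in ΔWAPL, at 6.28 on 16 reads, and its summit was also within 1 kb of a start of LYPD5. The shared promoter of ZNF383 and ZNF585B had a ΔWAPL peak of 5.74 on 15 reads. A second promoter region of ZNF383 had SMC1 in all 4 genotypes, at 5.13, 6.27, 6.43 and 7.1, with CTCF at 18.9, 18.6, 14.9 and 16.2. No CTCF peak was called at these 5 regions in ΔWAPL, and 3 of the regions had SMC1 in ΔWAPL alone. All 5 rested on few reads.

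The promoter sequences of the members were rich in a shared pattern. In windows from 250 bases before to 50 after the canonical start, searched on both strands, the longer pattern, ACTAC followed after 2 free bases by TTCCCAG, occurred in 33 members (13.4%), in 5.32% of ZNF genes elsewhere, in 1.3% of the other chromosome 19 genes and in 0.972% of all genes. The shorter TTTCCCAG, which overlaps the longer one where its free bases allow, occurred in 13.8% of members and 3.24% of all genes. Both patterns were chosen after the stretches shown above had been read. The longer pattern occurred in 12.5% of the members with an SMC1 promoter peak in ΔWAPL and in 13.6% of those without. The shorter one occurred in 8 of 48 (16.7%) and in 26 of 198 (13.1%). Among the 31 members whose ΔWAPL promoter peak lacked CTCF it occurred in 7 (22.6%). These counts are small and the difference was not tested. The windows lay at the canonical start, whereas a promoter peak could lie at another start of the gene. The searched sequence was therefore not always that of the occupied promoter. CCGGAAG, the core bound by ETS factors, occurred in 44.7% of member promoters and 14% of all, and GGGCGG, the core bound by SP factors, in 67.5% and 61.0%.

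The promoters were also split by CpG content. The ratio of observed to chance CpG was taken in the same windows at the canonical start. It was at least 0.6 in 78.0% of member promoters and 66.9% of all promoters. Within that class, 36 of 192 members (18.8%, 13.9 to 24.9) had an SMC1 promoter peak in ΔWAPL, against 37% of the other chromosome 19 genes, 55.9% of ZNF genes elsewhere and 56.9% of all genes. Without CTCF the shares in that class were 12.5%, 14.6%, 33.6% and 34.6%. In the class under 0.6 the members were no lower, with 12 of 54 (22.2%, 13.2 to 34.9) against 14.2%, 19.2% and 17.1%, and without CTCF 13% against 3.29%, 15.4% and 6.55%. The low share of the members in ΔWAPL was thus seen among genes with a CpG-rich canonical start. It was not seen in the other class, which held only 54 members. A promoter peak could lie at any start of the gene, so the class need not describe the start that was occupied.

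Inside the genes, the strongest wild-type SMC1 peak lay in an intron of ZNF653, the motif of which is the first shown above. Its fold enrichment was 9.96, 9.97, 8.03 and 7.34, beside CTCF values of 20.5, 20.1, 17.3 and 21.2. Both proteins were thus present in every genotype, with the lowest SMC1 value in the double mutant. An intronic site of ZNF536, a repressor of neuronal differentiation, had SMC1 at 5.77, 7.74, 5.98 and 7.18 and CTCF at 9.84, 9.16, 10.3 and 8.26, again in all 4. The local SMC1 background there was 2.99, 7.13, 2.85 and 4.15 reads, highest in ΔWAPL. The window of this background may hold the peak itself, so signal at the site cannot be told from signal around it. An intronic site of ZNF627 had SMC1 at 6.08 in wild-type and 7.05 in ΔWAPL and none in the genotypes without SCC4, although its CTCF peak was strong throughout, at 20.4, 21.9, 20.1 and 23. No motif match was found under that CTCF peak.

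ZNF93, which represses certain LINE-1 retrotransposons, held a pair of intronic sites with the same CTCF motif. At the upstream site SMC1 was at 8.31 in wild-type cells, at 14.3 where WAPL was deleted and at 9.15 in the double mutant, and no peak was called in ΔSCC4. At the downstream site, 28.8 kb away, SMC1 was at 5.58, 9.55 and 5.64 in the same genotypes, with no peak in ΔSCC4 either. CTCF was called at both in all 4 genotypes, at 12.6, 16.9, 12 and 15.1 upstream and at 12.8, 17.7, 7.1 and 12.9 downstream. Both sites had their highest values in ΔWAPL and lost SMC1 calls in ΔSCC4. The 19 bases of the motif were identical and in the same orientation, and windows of 419 bases around them were 91.9% alike, falling to 65.8% for windows of 2019 bases, and the part of this likeness in the shared pattern of peaks was not tested.

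Among regions with SMC1 in wild-type and none in ΔSCC4, the ZNF329 promoter stood beside ZNF93, with SMC1 at 7.34 in wild-type and 10.1 in ΔWAPL and CTCF at 21.4, 19.7, 11.8 and 13.6. Neither genotype without SCC4 had an SMC1 peak there, and both had the lower CTCF values. Among CTCF-bound regions with SMC1 in ΔWAPL and none in wild-type, the ZNF554 promoter was the strongest, with SMC1 at 8.61, 5.4 and 7.72 in the mutants over CTCF values of 24.2, 24.1, 22.2 and 21.4. A second intronic site of ZNF536 had SMC1 at 7.37 in ΔWAPL and 4.14 in ΔWAPL/ΔSCC4, and the ZNF536 promoter had 5.15 and 5.68 in the same genotypes. The regions of this paragraph were picked for a difference in SMC1 calls between genotypes, so they do not show how common such a difference is.

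Of the 20 members with an SMC1 peak in wild-type cells, 5 had none in ΔWAPL, where 185 of 7273 genes did. Among the regions lost, ZNF541, a gene of germ cells, had SMC1 at 5.49 in wild-type and 5.12 in ΔWAPL/ΔSCC4 and none in ΔWAPL, with weak CTCF at 5.28, 5.03, 5.17 and 8.35. ZNF787 had SMC1 only in wild-type, at 4.66, over CTCF of 12, 8.02, 8.99 and 14.9. ZNF350, whose product binds BRCA1, had SMC1 only in wild-type, at 4.25, with no CTCF peak.

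In the last exons, the only SMC1 peak was at ZNF575 in ΔWAPL, at 4.93 on 15 reads. CTCF was called there in every genotype, at 6.54, 9.28, 6.21 and 6.29, with the highest value also in ΔWAPL. In the last exon of ZNF473, whose product takes part in histone mRNA processing, CTCF was at 14.4, 10.7, 10.7 and 9.24 and SMC1 was called in no genotype. Of the ZNF473 stretch shown above, 24 bases lie in exon sequence that is not translated. The strongest constant CTCF sites without SMC1 lay in ZNF682, at 15.6, 11.6, 14.8 and 12.8, at the adjoining genes ZNF580 and ZNF581, at 13.8, 11.6, 15.9 and 14.4, and in another intron of ZNF627, at 15, 14.4, 12.7 and 13.7. CTCF sites of this strength therefore occurred at members both with and without a called SMC1 peak.

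**Figure D4:**
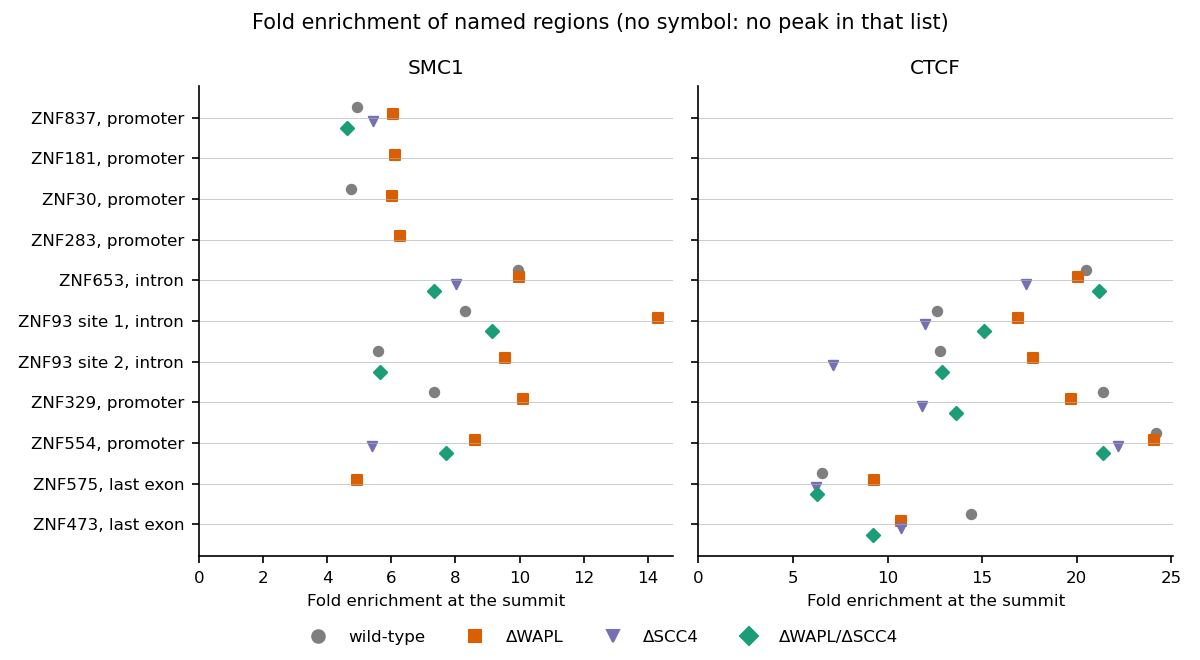
Fold enrichment at the summit (horizontal axes) of SMC1 and of CTCF at 11 of the named member regions, 1 symbol for each genotype and none where no peak was called. SMC1 at ZNF93 and ZNF329 is missing in ΔSCC4 while CTCF is present in all 4, and the last exon of ZNF473 has CTCF alone.

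ZNF274, whose product directs SETDB1 to the 3′ ends of other zinc-finger genes, was looked up for that role and not by the naming rule. Its promoter had CTCF at 14.1, 11.1, 9.47 and 8.82, and SMC1 at 4.78 in ΔWAPL and 4.18 in ΔWAPL/ΔSCC4. It had CTCF in all genotypes and SMC1 only in those without WAPL.

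The motif under the member CTCF peaks was then compared. A match was found in 58 of 83 peaks (69.9%) in wild-type cells and in 78.5%, 78.1% and 68.6% of those in the mutants. The shares over all CTCF peaks of odd-numbered chromosomes were 80.2%, 80.5%, 82.2% and 78.2%, and those of chromosome 19 alone 86.3%, 86.7%, 87.9% and 84.3%. The member intervals held the odd-chromosome share in ΔWAPL (68.2 to 86.1) and ΔSCC4 (67.3 to 86.0). Promoter peaks of members matched less often than intronic ones, at 62.5% against 75.6% in wild-type. The motif pointed with the gene in 19 of 38 promoter matches and in 19 of 42 intronic matches, so no orientation was preferred.

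The matches fell at 81 positions with 75 distinct sequences, and 5 sequences occurred at more than 1 position. These repeats were looked for after the ZNF93 pair had been seen, and 3 of them are shown in the motif direction with the genes that hold them.
ZNF439, ZNF763 and ZNF20: TAACCTGCAGGGGGCAGCA
ZNF587B and ZNF814: CCGCCACCAGAGGGCGCCG
ZNF556 and ZNF507: GGGCCACCAGAGGGCTCCT

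The sites with the same motif were not equally occupied. The first sequence lay at chr19:11990858-11990876 in an intron of ZNF439, where CTCF was at 6.05, 7.69, 4.46 and 4.89. SMC1 was called there in ΔWAPL alone, at 3.87. At the ZNF20 promoter, chr19:12252135-12252153, CTCF was at 18.7, 14.6, 17.1 and 17.4 and SMC1 at 4.59, 10.2 and 8.61 in all but ΔSCC4. At the ZNF763 promoter, chr19:12074866-12074884, CTCF was not called in wild-type and was at 17.4, 7.7 and 12.2 in the other genotypes. SMC1 was called at this copy in ΔWAPL alone, at 8.37. The 3 copies thus spanned a wide range of CTCF enrichment in the same library.

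The second sequence, at the ZNF587B promoter, had CTCF at 4.32, 11.3 and 8.11 in all but ΔWAPL. It had SMC1 at 5.1 in ΔWAPL and 4.33 in ΔWAPL/ΔSCC4. At the ZNF814 promoter the same bases had CTCF only in ΔWAPL/ΔSCC4, at 5.14. The third sequence, in introns of ZNF556 and ZNF507 far apart on the chromosome, had SMC1 in ΔWAPL alone at both, at 5.62 and 5.75. CTCF was called in all 4 genotypes, at 4.36, 9.45, 5.84 and 7.21 in ZNF556 and at 7.9, 10.3, 5.81 and 9.61 in ZNF507.

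A single long gene weighed on the intron counts. ZNF536 spans 0.489 Mb (chr19:30715798-31204493) and lies outside the clusters. It held 3, 11, 3 and 7 SMC1 peaks, and 9 to 12 CTCF peaks. Its body had 22.5 SMC1 peaks per Mb in ΔWAPL, against 6.55 over the bodies of the other members. Without it the intronic gene and peak pairs of SMC1 fell from 8 to 5 in wild-type cells and from 22 to 12 in ΔWAPL. The members with the next most SMC1 peaks in ΔWAPL were ZNF20, ZNF383, ZNF439 and ZNF575, with 2 each.

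The members were also taken by cluster, where a cluster was a run of at least 5 members with gaps under 250 kb. There were 12 clusters with 230 members, and 16 members lay outside. The cluster next to the centromere, 29 members from ZNF737 to ZNF254 over 3.59 Mb (chr19:20718631-24312770), had few occupied members. It had 1 member with SMC1 in ΔWAPL, ZNF724, and 0 in each other genotype, and 2 members with CTCF in each. Its whole span, the sequence between the genes included, held 6, 7, 5 and 9 SMC1 summits and 21, 21, 21 and 23 CTCF summits. The cluster at the end of the long arm, 43 members from ZNF264 to ZNF446 (chr19:57702868-58992597), had 3, 12, 2 and 5 members with SMC1. Over all members the share with SMC1 was 8.13% in wild-type and 23.2% in ΔWAPL, and over all genes 36.1% and 58.6%. The counts thus differed between these clusters, but they are small. Other genes within the clusters were not counted beside them, and whether the gain differs along the chromosome was not tested.

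Other clusters followed one or the other course. The 23 members from ZNF575 to ZNF180 had SMC1 at 5 members in ΔWAPL and at 0 in each other genotype. The 26 members from ZNF565 to ZNF573 had it at 1, 7, 1 and 4 members. The 25 members from ZNF653 to ZNF791 had it at 3, 8, 1 and 6. The 39 members from ZNF175 to ZNF331 changed little, with 5, 6, 4 and 6. ΔWAPL had the most occupied members, alone or tied, in each of the 12 clusters.

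**Figure D5:**
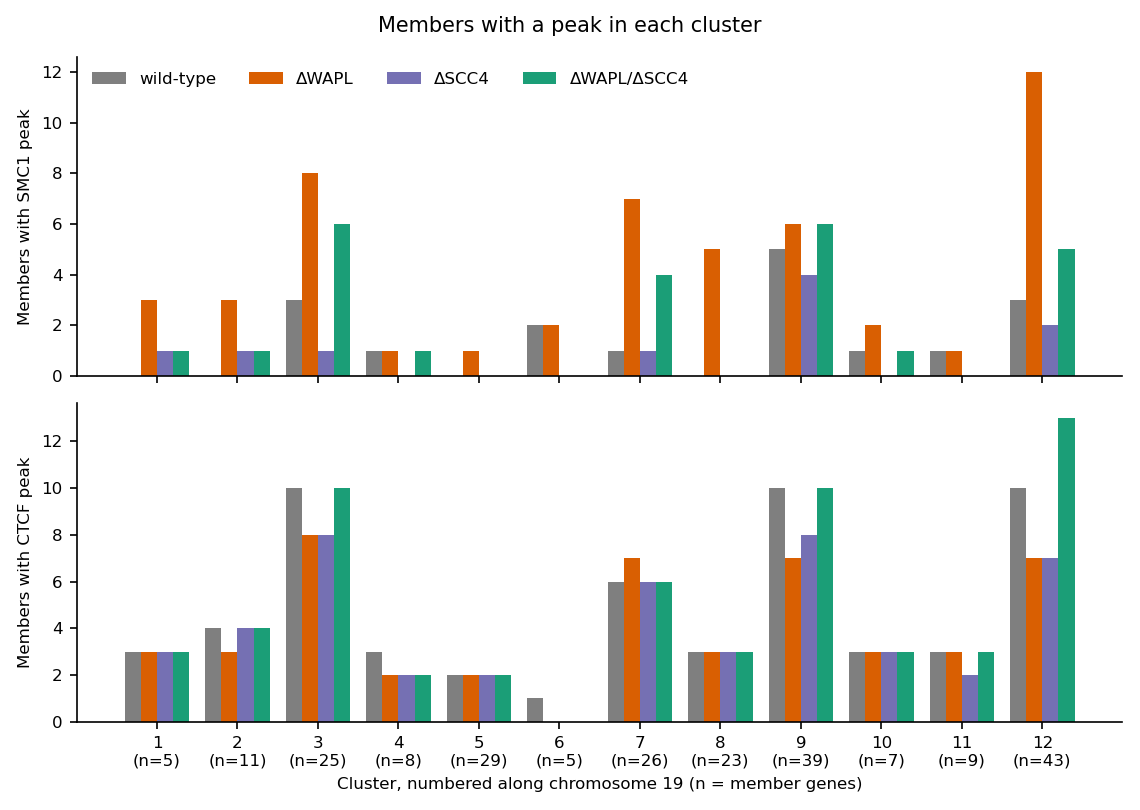
Number of members with an SMC1 or a CTCF peak in each genotype, for the 12 clusters in order along chromosome 19, with the number of members of each under its bars. The 29-member cluster beside the centromere has at most 1 member with SMC1, and the 43-member cluster at the end of the long arm has 12 in ΔWAPL.

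The genes whose products work with the KRAB zinc-finger proteins were given by a list of 20. An SMC1 peak was found at 6, 7, 3 and 7 of them, and a CTCF peak at 13, 13, 13 and 14. Over all genes the shares were 36.1%, 58.6%, 26.3% and 43.7% for SMC1 and 56.5%, 56.9%, 53.1% and 58.4% for CTCF. SMC1 promoter peaks were found at 2, 3, 0 and 3. TRIM28, the common co-repressor, had one only in ΔWAPL/ΔSCC4, at 5.22. CBX5, which encodes an HP1 protein, had one only in wild-type, at 5.52, and PPHLN1, of the HUSH complex, had one at 4.39, 5.29 and 4.4 in all but ΔSCC4. TASOR and the methyltransferase gene SUV39H1 had one only in ΔWAPL, at 4.37 and 4.34, and MORC2 only in ΔWAPL/ΔSCC4, at 5.57. The partner promoters showed no common order of the genotypes.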

How the data were processed

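The 12 deposited files were narrowPeak lists, 1 for each library. The authors mapped reads to hg19 and, per the submitters' processing notes, called peaks with MACS2 2.1.1. The deposited fold enrichment is a ratio of summit pileup to local background. The deposited −log10 p-value and −log10 q-value are the caller's own. The summit pileup and background were recovered from the fold enrichment and −log10 p. The methods name IgG as the control of the peak calling, whereas each recovered background tested fitted whole reads in a 10 kb window of the same library. Which of these the fold enrichment is relative to was not settled. The calling threshold was not given in the sources used here.

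The labels gave the genotype and antibody of each library, which set the groups. The 246 members, the gene lists and the settings were chosen with earlier results of these data known. Peaks were joined to GENCODE version 44 on GRCh37 with Python 3.11.15, pandas 2.3.3, numpy 2.4.6 and scipy 1.17.1, and figures used matplotlib 3.10.9. A promoter was 1 kb to either side of any start, and an overlap was at least 1 bp. Shares have 95% Wilson intervals and densities exact Poisson intervals, all for counting error only. No test was made between genotypes.

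The genes named were the strongest regions by −log10 q in each class. These were SMC1 promoter peaks without CTCF in ΔWAPL, wild-type intronic SMC1 peaks, last-exon peaks, wild-type SMC1 regions absent from ΔSCC4 or from ΔWAPL, ΔWAPL regions at CTCF absent from wild-type, and constant CTCF regions without SMC1. The members with most SMC1 peaks in ΔWAPL were named too. The CTCF motif was learned on even-numbered chromosomes other than 8, and a match was a score that 5% of flanking windows reach. Gene assignment, motif and recovery steps were tested on simulated data. Alternatives changed the q, fold and depth thresholds, list lengths, promoter windows, overlaps, start sets, member list and IgG filter.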

Additional observations from a re-analysis of the deposited data

Results flagged for a closer look

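The direction in which each deletion moved the number of members with a CTCF peak differed between the backgrounds. Deleting WAPL was accompanied by 10 fewer members with a CTCF peak in cells with SCC4 and by 10 more in cells without it, a difference of 20. Deleting SCC4 was accompanied by 10 fewer in cells with WAPL and 10 more in cells without it, again a difference of 20, since both are made of the same 4 counts. At member promoters the differences were 14 for WAPL (5 fewer and 9 more) and 14 for SCC4 (6 fewer and 8 more). In member introns they were 5 for WAPL (2 fewer and 3 more) and 5 for SCC4 (3 fewer and 2 more). Over all genes, 11401, 11471, 10707 and 11774 had a CTCF peak in wild-type, ΔWAPL, ΔSCC4 and ΔWAPL/ΔSCC4. The SCC4 change thus reversed between the backgrounds over all genes too, so that part is not particular to the members. The WAPL change over all genes was a rise in both backgrounds. The same held at all promoters (5893, 5943, 5241 and 6255) and in all introns (7631, 7710, 7139 and 7872). With 1 library per genotype the difference was not tested. At a −log10 q of at least 10 the counts were 38, 43, 38 and 42 in wild-type, ΔWAPL, ΔSCC4 and ΔWAPL/ΔSCC4, and WAPL deletion was then accompanied by more members in both backgrounds.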

How the results depend on the processing

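Of 548 values recomputed under alternative settings, 459 kept within their error or within 1.5 times, and 89 moved by more. Of 560 differences between genotypes in these counts, 31 turned in direction, 11 of 315 for SMC1 and 20 of 245 for CTCF. Lists of equal length gave 8 of the 11 and 9 of the 20, among them a change of intronic SMC1 from 6 more members in ΔWAPL than in wild-type to 1 fewer. None of the counts moved under other promoter windows (500 bp or 2 kb), starts of the canonical transcript, assignment by summit, a 50% overlap, removal of IgG peaks, added read-through genes, the stricter motif score, or, both chosen after seeing the data, leaving out ZNF536 or peaks near a start of another gene. Without ZNF536 the intronic SMC1 density in ΔWAPL moved to 2.28 per Mb. The values that moved follow, in the order wild-type, ΔWAPL, ΔSCC4 and ΔWAPL/ΔSCC4 where 4 are given.

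At a −log10 q of at least 5, SMC1 was found at 12 members in wild-type, at promoters of 8 in wild-type and 14 in ΔWAPL/ΔSCC4, and at promoters without CTCF of 3, 19 and 2 in all but ΔSCC4. The SMC1 promoter density was 7.47 per Mb in wild-type and 30.8 in ΔWAPL. At 10, SMC1 was found at 3, 14, 1 and 9 members, at promoters of 1, 11, 0 and 6, without CTCF at 0, 2, 0 and 0, in introns of 2, 4, 1 and 4, and in the last exon of 0 in ΔWAPL. CTCF was then found at 38 members in wild-type and 42 in ΔWAPL/ΔSCC4, at promoters of 25 and 26, in introns of 16 in wild-type and 16 in ΔSCC4, and in the last exon of 1 in each genotype but ΔWAPL. SMC1 densities per Mb were 0.933, 10.3, 0 and 5.6 in promoters, 0.348, 1.56, 0.174 and 0.696 in introns and 0 in last exons in ΔWAPL. CTCF densities were 23.3, 23.3, 21.5 and 24.3 in promoters, and in introns 4.0, 4.0 and 4.69 in all but ΔWAPL.

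At a fold enrichment of at least 5, SMC1 was found at 10 members in wild-type and 31 in ΔWAPL, at promoters of 6, 25 and 14 in all but ΔSCC4, without CTCF at 1, 13, 1 and 2, and in 0 last exons in ΔWAPL. With lists of equal length, SMC1 was found at 7, 11 and 8 members in all but ΔSCC4, at promoters of 3, 9 and 5, without CTCF at 0 in each of these, in introns of 3 in ΔWAPL and 4 in ΔWAPL/ΔSCC4, and in 0 last exons in ΔWAPL. CTCF was then in introns of 19 in wild-type, and in ΔWAPL/ΔSCC4 at promoters of 27 and 1 last exon. In a further setting, coverage was scaled to the shallowest library and a −log10 p of at least 8 was then required. The lowest −log10 p of the SMC1 lists was 3.73 to 4.35, so the falls are not those of depth alone. SMC1 was then found at 9 members in wild-type, 27 in ΔWAPL and 7 in ΔSCC4, at promoters of 5, 20, 5 and 14, and without CTCF at 1, 8, 0 and 2. It was in 0 last exons in ΔWAPL, and CTCF was at promoters of 28 in ΔWAPL/ΔSCC4. Each of these settings keeps fewer peaks. The number of members with SMC1 was higher in ΔWAPL than in wild-type in 13 of 13 settings.

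No paired analysis was possible because each genotype and antibody has 1 library and no result comes from a test. Most member SMC1 peaks rest on few reads, so their number moves with the threshold, and a weak peak that was not called cannot be told from an absent one. Recurring sequence was not masked, and near-identical copies such as those in ZNF93 are uncertain for that reason.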
